A study of Mus musculus with 12 samples.

Results

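The genes described here are the signals that make, release and attract neutrophils, and the receptors that read them. They are 9 genes taken by name from a table of 46078 genes: the colony stimulating factors Csf3, Csf2 and Csf1, the chemokines Cxcl1, Cxcl2, Cxcl3 and Cxcl5, and the receptors Csf3r and Cxcr2. The rule is a list of names and uses no threshold on a measured value. All 9 passed the filter on low counts, which left 18252 genes for testing.

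G-CSF, the product of Csf3, drives the bone marrow to make and release neutrophils, and it acts through the receptor encoded by Csf3r on cells of the granulocyte lineage. CXCL1, CXCL2, CXCL3 and CXCL5 carry the Glu-Leu-Arg motif before their first cysteines and draw neutrophils into tissue through CXCR2. GM-CSF (Csf2) and M-CSF (Csf1) act on the granulocyte-macrophage and macrophage lineages. 4T1, the mouse mammary carcinoma line used here, is known for secreting G-CSF and for the high neutrophil counts of the mice that carry it.

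The libraries came from orthotopic mammary tumours in BALB/c mice given 300000 4T1 cells with firefly luciferase in fat pad number 4. All groups share that line, labelled as wild type, and that site. Mice received vehicle, MBQ-167 at 100 mg/kg 5 times a week, paclitaxel at 5 mg/kg 1 time a week, or both drugs, from day 14 for 2 weeks, and tumours were taken on day 28. Paclitaxel is a microtubule stabiliser, and MBQ-167 is an inhibitor of the GTPases Rac and Cdc42. Each group has 3 libraries, called biological replicates. The sources used here do not say whether each library is a separate mouse, so the p-values refer to the spread among libraries, which may be technical. They also give no age. Cells were injected on 2 occasions, not tied to libraries by the labels, and an effect of occasion cannot be told apart from that of group.

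Total counts ran from 11540557 to 17001562 per library, and 17.11% to 37.54% of them fell on 3 rRNA-like features of chromosome 17. Levels are CPM, counts scaled to library size with TMM correction, and group values are mean ± SD (n = 3). Differences are log2 fold changes ± SE from edgeR's quasi-likelihood test over all 12 libraries, with Benjamini-Hochberg adjustment over all 18252 genes, and a gene passed at an adjusted p under 0.05. The 9 mammary carcinoma epithelial markers had a summed level from 993.9 CPM in vehicle 2 to 3094 CPM in vehicle 3. 1 of them, the basal keratin Krt5, was at 0 in vehicle 3. In neutrophil markers 1 library stood apart: vehicle 3 had a summed level of 1901 CPM for 19 of them, against 321.7 to 499.4 CPM in the 9 drug libraries. The lowest vehicle library had 481.2 CPM. Vehicle 3 also had the lowest summed level of 12 macrophage markers, 851.4 CPM, and vehicle 2 the highest, 3794 CPM. The vehicle libraries that remain without vehicle 3 thus also differ in epithelial and macrophage markers. The receptor and Cxcl1 results are given with and without vehicle 3, and the list results in part.

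The 4 chemokine genes lie together on chromosome 5 of GRCm38, in 146.6 kb from Cxcl5 to Cxcl2 (90759360 to 90905938). The bases upstream of 3 of them, and of both receptor genes, are shown because the chemokines share a sequence in the windows shown that the receptors lack. The sequences are from RefSeq, build GRCm38.p6, on the strand of the gene, 5′ to 3′, and end before the first base that GENCODE vM21 or RefSeq annotates as transcribed. The capitals mark matches to any of 6 motifs searched on both strands.
Cxcl1, chr5:90890995-90891240, + strand: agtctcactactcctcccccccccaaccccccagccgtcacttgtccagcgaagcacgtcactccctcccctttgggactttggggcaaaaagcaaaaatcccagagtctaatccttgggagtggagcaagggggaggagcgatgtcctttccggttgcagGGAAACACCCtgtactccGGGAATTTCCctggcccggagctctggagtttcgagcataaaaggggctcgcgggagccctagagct
Cxcl2, chr5:90903649-90903870, + strand: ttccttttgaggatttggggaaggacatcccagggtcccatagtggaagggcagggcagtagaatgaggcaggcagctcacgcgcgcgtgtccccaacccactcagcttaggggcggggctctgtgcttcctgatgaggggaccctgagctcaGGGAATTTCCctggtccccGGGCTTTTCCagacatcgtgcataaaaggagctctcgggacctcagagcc
Cxcl3, chr5:90785851-90786100, + strand: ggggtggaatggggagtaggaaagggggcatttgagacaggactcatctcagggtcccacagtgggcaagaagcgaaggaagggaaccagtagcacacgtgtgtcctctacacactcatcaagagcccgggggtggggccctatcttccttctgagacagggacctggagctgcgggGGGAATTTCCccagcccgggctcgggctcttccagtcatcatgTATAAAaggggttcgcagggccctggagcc
Csf3r, chr4:126024409-126024549, + strand: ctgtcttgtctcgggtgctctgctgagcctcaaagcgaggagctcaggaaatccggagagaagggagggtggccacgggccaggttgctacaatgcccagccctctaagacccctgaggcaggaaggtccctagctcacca
Cxcr2, chr1:74153744-74153988, + strand: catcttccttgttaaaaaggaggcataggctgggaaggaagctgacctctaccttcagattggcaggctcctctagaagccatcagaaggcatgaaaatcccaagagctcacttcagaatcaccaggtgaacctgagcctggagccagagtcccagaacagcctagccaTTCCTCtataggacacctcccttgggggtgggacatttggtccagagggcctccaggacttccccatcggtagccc

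The motif GGG and TTTCC with 2 bases of any kind between them, a form of the site bound by NF-κB, was found in the windows of Cxcl1, Cxcl2, Cxcl3 and Csf1. It occurs in 1.41% of the 32851 RefSeq promoters when the 250 bases before the start are searched. The same letters, GGGAATTTCC, stood 71, 97 and 73 bases upstream of the RefSeq start in Cxcl1, Cxcl2 and Cxcl3. Cxcl1 and Cxcl2 each held another match, GGAAACACCC on the opposite strand 89 bases upstream and GGGCTTTTCC 78 bases upstream. Csf1 held GGAAAGTCCC on the opposite strand, 154 bases upstream. The PU.1 box, searched as GAGGAA, is the site of a factor of myeloid cells and occurs in 23.3% of promoters. The C/EBP site was searched as TTNNGCAAT (1.93% of promoters). The STAT site was searched as TTCNNNGAA (7.02% of promoters). AP-1, the factor of Jun and Fos proteins, was searched as TGANTCA and its letters occur in 6.75% of promoters. The TATA box, which sets the start of many inducible genes, was searched as TATAAA and occurs in 12.4% of promoters. Of these, Cxcl3 had a TATA box match 30 bases upstream and Cxcr2 had the PU.1 box on the opposite strand 81 bases upstream. No motif overlapped another in these windows. No match was found in the 141 bases shown for Csf3r, or in the 250 bases upstream of the RefSeq start of Csf2 (chr11:54249900-54250149, - strand). GENCODE starts Csf2 at 54249667, and the bases between that start and the window were not searched. These are statements about the letters and windows searched alone. 7 of the 9 genes matched the promoter table, and Csf3 and Cxcl5 did not.

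Per length of annotated exons, Csf1 and Csf3 were the most abundant of the 9 transcripts. Over all 12 libraries the level was 23.4 ± 5.42 CPM per kb for Csf1 and 19.5 ± 3.52 CPM per kb for Csf3 (SD, n = 12). Csf3r followed with 8.48 ± 6.28 CPM per kb. Cxcr2 had 3.62 ± 5.03, Cxcl2 3.54 ± 1.08 and Cxcl1 3.47 ± 1.33 CPM per kb. At the bottom were Cxcl5 with 1.93 ± 0.862, Csf2 with 1.14 ± 0.607 and Cxcl3 with 0.89 ± 0.302 CPM per kb. The libraries' ranges overlapped for every pair of neighbours in this order. The place of Cxcr2 came from vehicle, where it had 8.98 ± 8.94 CPM per kb. It had 2.62 ± 0.169 CPM per kb with MBQ-167, 1.27 ± 0.473 with paclitaxel and 1.61 ± 0.154 with the combination, means below those of Cxcl1 and Cxcl2 in the same groups. Csf3r reached the range of Csf3 in vehicle 3 alone, where it was at 27.1 CPM per kb against a lowest value of 15.1 for Csf3.

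**Figure D1:**
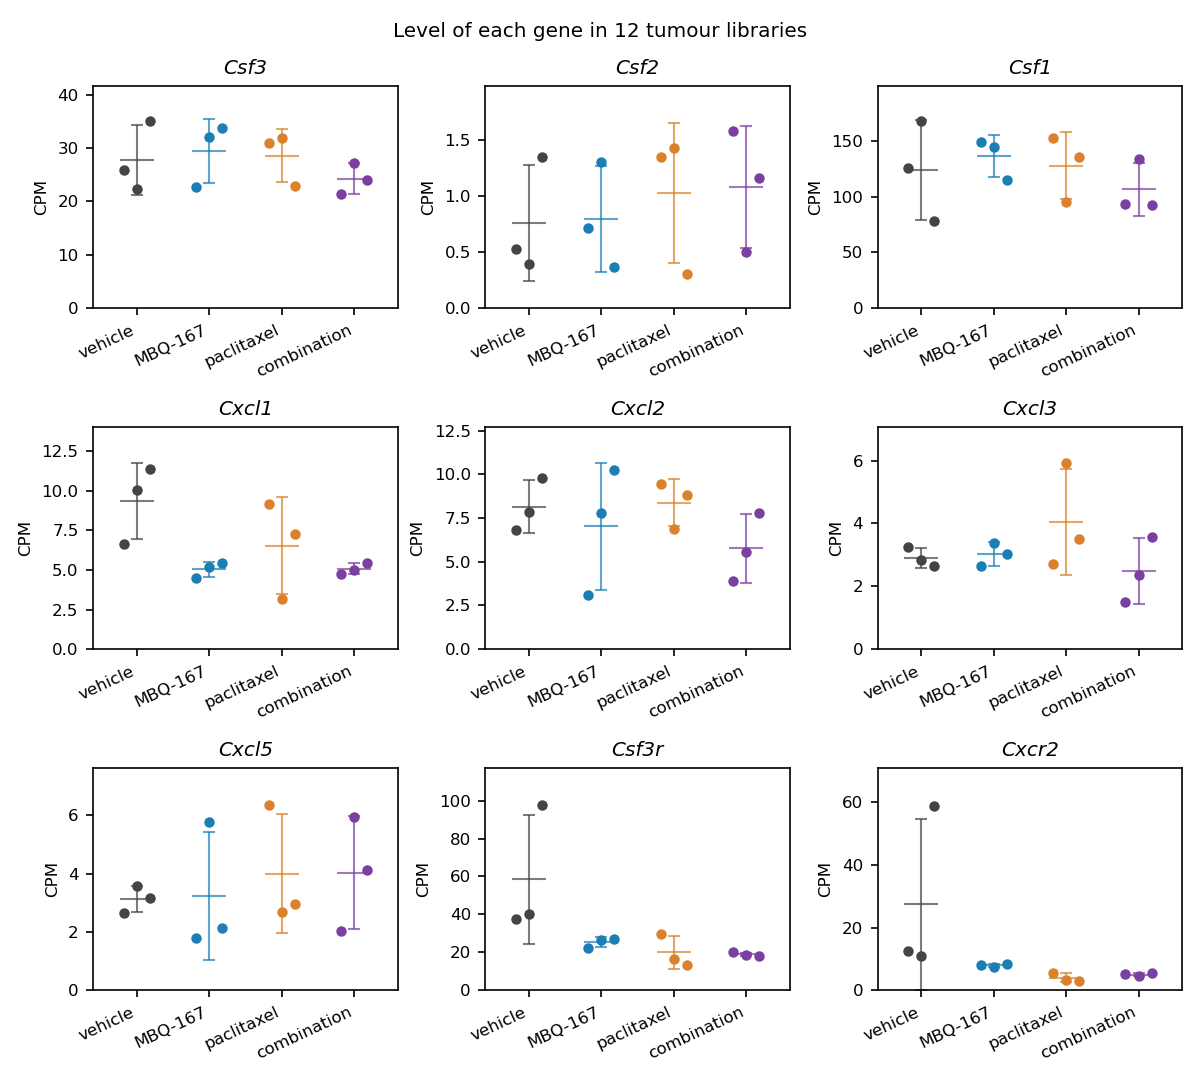
CPM (vertical axis, from 0) of each of the 9 genes in the 12 libraries, by group. Points are libraries 1 to 3 from left to right, and bars are mean ± SD. Csf3 lies between 21.4 and 35 CPM in every library, while Csf3r and Cxcr2 are lower in all 9 drug libraries than in all 3 vehicle libraries, with vehicle 3 far above the others.

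The first question was whether the tumours' own neutrophil-inducing signal differed with treatment. Csf3 (ENSMUSG00000038067, chromosome 11, 98701263 to 98703629) was at 25.8, 22.4 and 35 CPM in vehicle libraries 1 to 3 and at 22.6, 32.1 and 33.7 CPM with MBQ-167. It was at 31, 31.8 and 22.9 CPM with paclitaxel and at 21.4, 27.3 and 24.1 CPM with the combination. All groups overlapped, and the highest library exceeded the lowest by 1.64-fold, the narrowest range among the 9 genes. The log2 fold change against vehicle was 0.09 ± 0.20 for MBQ-167 (adjusted p = 0.9), 0.04 ± 0.20 for paclitaxel (adjusted p = 0.928) and -0.19 ± 0.20 for the combination (adjusted p = 0.659). With the 9 drug libraries pooled, the difference from vehicle was -0.02 with a 95% interval of -0.37 to 0.32. No change of Csf3 was detectable, and a change inside that interval is not excluded by these data.

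Neither the M-CSF nor the GM-CSF transcript passed in any comparison, and they were measured with very different precision. Csf1 (ENSMUSG00000014599, chromosome 3, 107741048 to 107760469), the survival factor of macrophages, had 124 ± 44.8 CPM in vehicle, 136 ± 18.8 with MBQ-167, 128 ± 29.8 with paclitaxel and 106 ± 23.5 with the combination. Its lowest library, at 78.3 CPM, was vehicle 3 and its highest, at 168 CPM, was vehicle 2. The pooled difference was -0.01 with a 95% interval of -0.44 to 0.42. Csf2 (ENSMUSG00000018916, chromosome 11, 54247271 to 54249667) rested on 5 to 28 counts per library. Its group means lay between 0.758 CPM in vehicle and 1.08 CPM with the combination, and its pooled difference of 0.3 had an interval from -0.92 to 1.53. The groups overlapped, and at this depth only a large change could have been detected. The antisense gene Gm12223 overlaps Csf2, and with the strand setting of the counting not stated, its reads cannot be told apart from those of Csf2.

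Cxcl1 was lower than in every vehicle library with MBQ-167 and with the combination, and none of the 4 chemokines passed the edgeR test in any comparison. Cxcl1 (ENSMUSG00000029380, chromosome 5, 90891241 to 90893115) was at 6.65, 10 and 11.3 CPM in the vehicle libraries. It was at 4.51, 5.2 and 5.42 CPM with MBQ-167, at 9.16, 3.16 and 7.3 CPM with paclitaxel, and at 4.74, 5.02 and 5.43 CPM with the combination. The paclitaxel libraries overlapped the vehicle libraries. The log2 fold change was -0.89 ± 0.32 for MBQ-167 (adjusted p = 0.252) and -0.88 ± 0.31 for the combination (adjusted p = 0.156). It was -0.50 ± 0.31 for paclitaxel (adjusted p = 0.362) and -0.76 ± 0.25 with the drug libraries pooled (adjusted p = 0.081). Without vehicle 3 the values were -0.72 for MBQ-167, -0.34 for paclitaxel, -0.72 for the combination and -0.59 pooled (adjusted p = 0.23 for the pooled value). DESeq2 called the pooled difference (adjusted p = 0.0444), as did the edgeR test without a filter on low counts (adjusted p = 0.026). Limma voom and 12 fits that each left out 1 library did not.

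Cxcl2, Cxcl3 and Cxcl5 overlapped between vehicle and each drug group. Cxcl2 (ENSMUSG00000058427, chromosome 5, 90903871 to 90905938) had 8.14 ± 1.52 CPM in vehicle, 7.04 ± 3.63 with MBQ-167, 8.39 ± 1.34 with paclitaxel and 5.76 ± 1.95 with the combination. Cxcl3 (ENSMUSG00000029379, chromosome 5, 90786103 to 90789600) had 2.91 ± 0.313, 3.03 ± 0.372, 4.04 ± 1.68 and 2.47 ± 1.05 CPM in the same order. Cxcl5 (ENSMUSG00000029371, chromosome 5, 90759360 to 90761624) had 3.13 ± 0.458, 3.23 ± 2.21, 4 ± 2.05 and 4.03 ± 1.95 CPM. In each drug group 1 library stood above the other two for Cxcl5: MBQ-167 library 2 with 5.78 CPM, paclitaxel library 1 with 6.36 CPM and combination library 2 with 5.95 CPM. The pooled differences were -0.22 for Cxcl2 (95% interval -0.83 to 0.39), 0.1 for Cxcl3 (-0.52 to 0.73) and 0.27 for Cxcl5 (-0.59 to 1.12). The transcripts of Cxcl2 and Cxcl3 share a run of 157 identical bases, and Cxcl1 shares at most 23 with either. How reads from that run were counted is not stated in the sources used here, and the values of Cxcl2 and Cxcl3 are uncertain.

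Both receptors were lower in all 9 drug libraries than in any vehicle library. Csf3r (ENSMUSG00000028859, chromosome 4, 126024550 to 126044440), the G-CSF receptor, was at 37.6, 40.3 and 97.6 CPM in vehicle libraries 1 to 3. It was at 22.3, 26.6 and 26.8 CPM with MBQ-167, at 29.7, 16.6 and 13.4 CPM with paclitaxel, and at 20, 18.3 and 18.1 CPM with the combination. Every drug library lay below every vehicle library, and vehicle 3 was far above the other vehicle libraries. Csf3r fell with paclitaxel by 1.55 on the log2 scale (SE 0.333, adjusted p = 0.0184) and with the combination by 1.64 (SE 0.336, adjusted p = 0.0302). With MBQ-167 the log2 fold change was -1.21 ± 0.33 and did not pass (adjusted p = 0.152).

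Cxcr2 (ENSMUSG00000026180, chromosome 1, 74153989 to 74161246), the receptor of the 4 chemokines, was the gene with the widest range, 20-fold between its lowest and its highest library. It was at 12.4, 10.9 and 58.8 CPM in vehicle and at 8.02, 7.44 and 8.46 CPM with MBQ-167. It was at 5.54, 3.16 and 2.95 CPM with paclitaxel and at 5.02, 4.4 and 5.32 CPM with the combination. No drug library reached the lowest vehicle library. The combination libraries all lay below the MBQ-167 libraries, as in 5.92% of all genes. The paclitaxel libraries did so too, an order whose share over all genes was not counted. Cxcr2 fell with paclitaxel by 2.80 on the log2 scale (SE 0.523, adjusted p = 0.0107) and with the combination by 2.48 (SE 0.516, adjusted p = 0.0326). With MBQ-167 it had -1.78 ± 0.50 (adjusted p = 0.164).

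In all, 2 of 9 genes passed with paclitaxel and with the combination, both lower, where 2.49% and 0.811% of all tested genes were called lower (5.66% and 1.84% in either direction). Both genes lay wholly below vehicle with paclitaxel, as 12.1% of all genes did, and with the combination, as did Cxcl1 and 9.86% of all genes. With MBQ-167 0 of 9 passed by edgeR, against 0.0931% of all genes. At an unadjusted p under 0.05 there were 3, namely Csf3r, Cxcl1 and Cxcr2, against 12.9% of all genes. DESeq2 called 1 of the 9 with MBQ-167, Csf3r (adjusted p = 0.016), and limma voom 0. Those 3 genes are also the ones whose MBQ-167 and vehicle libraries did not overlap, as in 8.79% of all genes in that direction. The pooled drug libraries gave 2 of 9, again Csf3r (-1.47 ± 0.25, adjusted p = 0.00675) and Cxcr2 (-2.35 ± 0.37, adjusted p = 0.00524). In that comparison 3.46% of all genes were called lower and 6.32% in either direction, and 3.95% lay wholly below vehicle. The median over the 9 genes was -0.02 there, as it was close to 0 over all genes (-0.0037).

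Much of the size of these receptor differences came with vehicle 3. Without it the pooled difference was -0.88 for Csf3r (adjusted p = 0.0247) and -1.12 for Cxcr2 (adjusted p = 0.0115), both still past the threshold. With paclitaxel they had -0.96 (adjusted p = 0.0337) and -1.57 (adjusted p = 0.00609), and with the combination -1.05 (adjusted p = 0.041) and -1.25 (adjusted p = 0.0285). With MBQ-167 they had -0.62 and -0.55 (adjusted p = 0.271 and 0.356). The calls for single drugs were less firm when a drug library was left out. Csf3r missed the threshold without paclitaxel library 2 (-1.43, adjusted p = 0.0787) and library 3 (-1.33, adjusted p = 0.0579), and Cxcr2 without paclitaxel library 2 (-2.68, adjusted p = 0.0528). Fits of only the 2 groups compared gave similar sizes and no call for either receptor (adjusted p = 0.0914 and 0.0655 with paclitaxel, 0.131 and 0.15 with the combination). With the combination both missed it without each of the 3 combination libraries in turn, at -1.69 to -1.62 for Csf3r and -2.56 to -2.41 for Cxcr2.

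**Figure D2:**
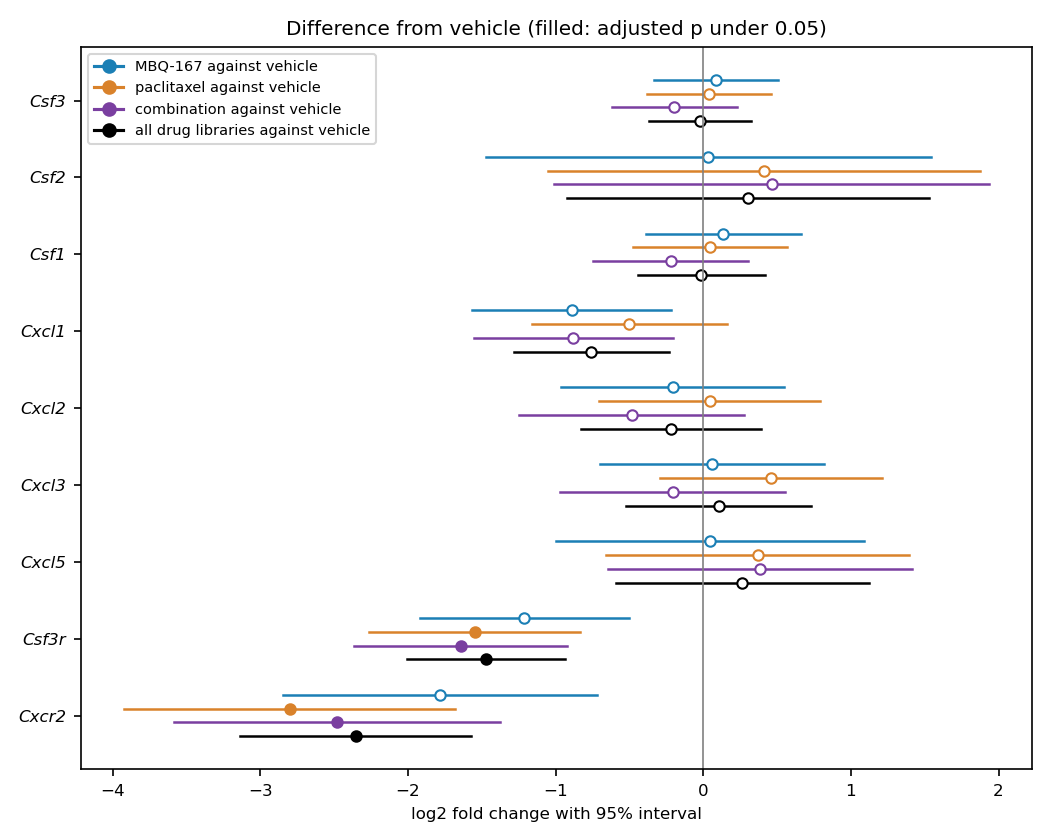
Log2 fold change against vehicle (horizontal axis) of the 9 genes with its 95% interval, for each drug group and for the 9 drug libraries pooled. Filled points passed at an adjusted p under 0.05. The filled points are Csf3r and Cxcr2 with paclitaxel, with the combination and in the pooled comparison, and the intervals of Csf3 lie around 0.

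Adding a second drug made no detectable difference. In the combination against MBQ-167, 0 of 9 genes and 0% of all genes passed by edgeR, with 0 of 9 at an unadjusted p under 0.05 against 940 of all genes. DESeq2 and limma voom called 0 of the 9 there. Csf3r (-0.43 ± 0.33) and Cxcr2 (-0.70 ± 0.51) were lower in all 3 combination libraries than in all MBQ-167 libraries, an order seen in 5.92% of all genes. Their 95% intervals ran from -1.14 to 0.29 and from -1.80 to 0.40. In the combination against paclitaxel, 0 of 9 and 0% of all genes passed by edgeR, with 0 of 9 at an unadjusted p under 0.05 against 430 of all genes. Neither DESeq2 nor limma voom called any of the 9 there. Csf3r had -0.09 (95% interval -0.81 to 0.62), Cxcr2 0.32 (-0.81 to 1.45) and Cxcl3 -0.67 (-1.42 to 0.08). The interaction, which is 0 where the effects of both drugs add on the log2 scale, was 2.1 ± 0.72 for Cxcr2 (adjusted p = 0.349) and 1.12 ± 0.47 for Csf3r (adjusted p = 0.459). It passed by edgeR, DESeq2 and limma voom in 0 of 9 genes and by edgeR in 0.0603% of all genes. Without vehicle 3 it was 0.87 for Cxcr2 and 0.53 for Csf3r.

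Counts of 2 genes can also be set against each other within a library, which needs no scaling between libraries. These ratios were chosen after the values had been seen, so they are a description and carry no test. There were 1.45, 1.8 and 2.79 Csf3r counts per Csf3 count in vehicle libraries 1 to 3. The ratio was 0.987, 0.829 and 0.794 with MBQ-167, 0.958, 0.521 and 0.587 with paclitaxel, and 0.935, 0.671 and 0.753 with the combination. All 9 drug libraries were below all 3 vehicle libraries, by -1.34 on average on the log2 scale and by -1.08 without vehicle 3. Counts are not per length: per kb of exon, Csf3 exceeded Csf3r in vehicle 1 (18.3 against 10.4 CPM per kb) and vehicle 2 (15.8 against 11.2), and Csf3r exceeded Csf3 in vehicle 3 (27.1 against 24.8). The ratio of Cxcr2, which does not bind G-CSF, to Csf3 was 0.479, 0.488 and 1.68 in vehicle and between 0.0993 and 0.354 in the drug libraries, a difference of -1.91, or -1.32 without vehicle 3. Cxcr2 against Csf3r differed by -0.57, or -0.24 without vehicle 3. Cxcl1 against its neighbour Cxcl2 differed by -0.49, or -0.47 without vehicle 3, and its groups overlapped.

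**Figure D3:**
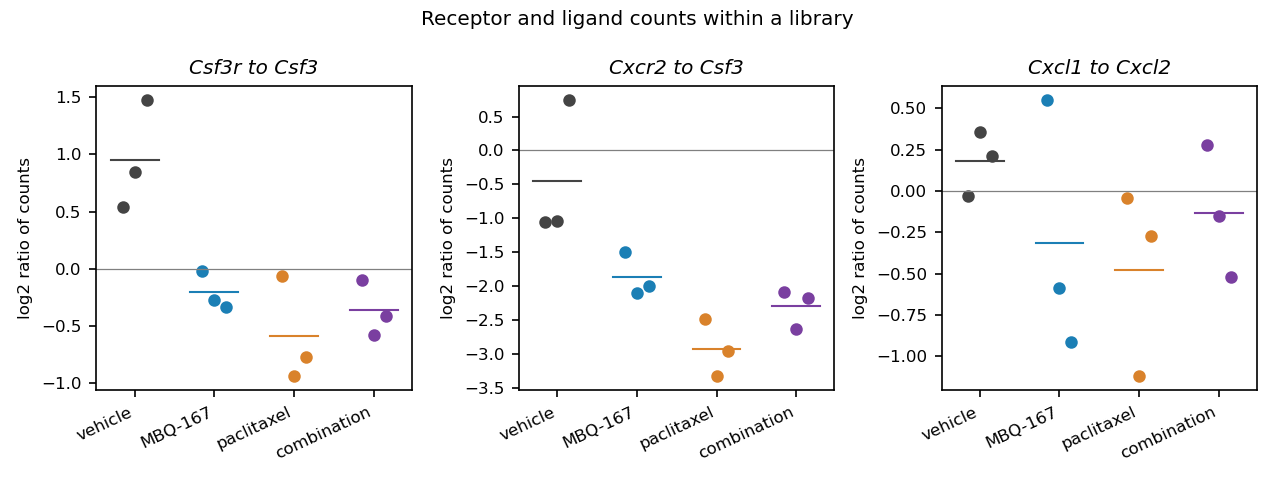
Log2 ratio of counts of 2 genes within each library (vertical axis) by group, with a line at the group mean. For Csf3r to Csf3 all drug libraries lie below all vehicle libraries, and for Cxcl1 to Cxcl2 the groups overlap.

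Both receptors are made by neutrophils, so their levels are set beside neutrophil markers that exclude them. Of 20 markers 19 were tested. Their summed level was 481.2 to 1901 CPM in vehicle, 426 to 499.4 with MBQ-167, 321.7 to 409.2 with paclitaxel and 328.8 to 392.8 with the combination. In the drug libraries much of it came from Mmp9 and Lcn2. Mmp9 had a mean of 143 CPM in vehicle, 109 with MBQ-167, 129 with paclitaxel and 152 with the combination. Lcn2 had 152, 151, 96.6 and 92.8 CPM in the same order. Without vehicle 3 their log2 fold changes were 0.17 and -0.15 with paclitaxel, and 0.41 and -0.22 with the combination. Ly6g, a neutrophil surface marker, was at 0 in 1 library, and the untested Elane, neutrophil elastase, in 3. Against vehicle, 0.0931% of all tested genes passed with MBQ-167, 5.66% with paclitaxel and 1.84% with the combination. Called lower were 2.49% with paclitaxel and 0.811% with the combination. Without vehicle 3, 0.0749%, 6.09% and 2.22% of all genes passed. All marker counts in this paragraph stand beside these shares. Of the 19 neutrophil markers, 0 passed with MBQ-167 (median -1.72), 11 fell with paclitaxel (median -2.57) and 9 fell with the combination (median -2.56). Without vehicle 3 these counts were 0, 9 and 6, with medians of -0.65, -1.48 and -1.53. Those that fell with paclitaxel included the calprotectin subunits S100a8 (-2.57 ± 0.48 with paclitaxel) and S100a9 (-1.99 ± 0.41), Il1r2 (-2.33 ± 0.43), a decoy receptor for interleukin-1, and Cd177 (-4.40 ± 0.83), a surface protein of neutrophils. Without vehicle 3 these genes had -1.53, -1.18, -1.48 and -2.59 in that order. In bulk tissue, fewer cells of a type and less RNA per cell cannot be told apart. Of 5 erythroid markers tested, 0 passed with MBQ-167, 2 fell with paclitaxel and 3 fell with the combination (0, 2 and 2 without vehicle 3), and their summed level was 256 to 264.7 CPM in vehicle and 14.5 to 107.3 CPM in the drug libraries. Of 9 tumour epithelial markers 1, Krt8, fell with paclitaxel (-0.80 ± 0.18, adjusted p = 0.0236) and 0 passed with the other drug groups, with medians of -0.76, -0.62 and -0.38 (-0.07, -0.05 and 0.21 without vehicle 3, where 0 passed). Their summed level was 2072 ± 1051 CPM in vehicle, 1286 ± 288 with MBQ-167, 1280 ± 66.7 with paclitaxel and 1374 ± 373 with the combination. Of 12 macrophage markers 1 fell with paclitaxel (3 without vehicle 3) and 0 passed with the other drug groups, and 0 of 11 T and NK cell, 5 B cell, 8 fibroblast and 7 endothelial markers passed. The part of neutrophil, blood and tumour cell content in the receptor differences was not tested.

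Over the 12 libraries the mean log2 CPM of the 19 neutrophil markers was correlated with both receptors. For Cxcr2 Pearson's r was 0.979 (permutation p = 1e-05, the smallest 100000 resamples can give, adjusted p = 4.5e-05 over 9 relations) and Spearman's rho was 0.979 (permutation p = 1e-05). For Csf3r r was 0.972 (permutation p = 1e-05, adjusted p = 4.5e-05) and rho 0.93 (permutation p = 6e-05). The shuffles for the levels took all 12 libraries without regard to group. Their p-values thus also take in differences between the groups. Without vehicle 3 and vehicle 1, the libraries farthest from the median marker level, r was 0.923 for Cxcr2 and 0.905 for Csf3r. Within groups, taken as deviations from the group means, r was 0.95 and 0.925. Among the ligands, Cxcl1 had r = 0.616 (permutation p = 0.0302, adjusted p = 0.0906) and rho = 0.462 (permutation p = 0.133), and r was 0.364 without the same 2 libraries. Csf3 had r = 0.394 (permutation p = 0.209, adjusted p = 0.47) and rho = 0.287 (permutation p = 0.368), and r was 0.114 without them. The other 5 ligand genes had r between -0.257 for Csf1 and 0.28 for Cxcl2, with adjusted permutation p of 0.649 or more. As deviations from the group means, Csf2 (r = 0.672, adjusted permutation p = 0.0368) and Csf1 (r = -0.662, adjusted permutation p = 0.0398) passed, and Csf3 had r = 0.617. The permutation shuffled the deviations freely although the group means had been taken out. These p-values may thus be too small, and both calls are not firm. In these deviations vehicle 3 has the highest marker level. The deviations were not correlated again without that library. For the levels themselves, r was 0.141 for Csf2 and -0.257 for Csf1 over the 12 libraries. Without vehicle 3 and vehicle 1 these were -0.0471 and 0.428.

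**Figure D4:**
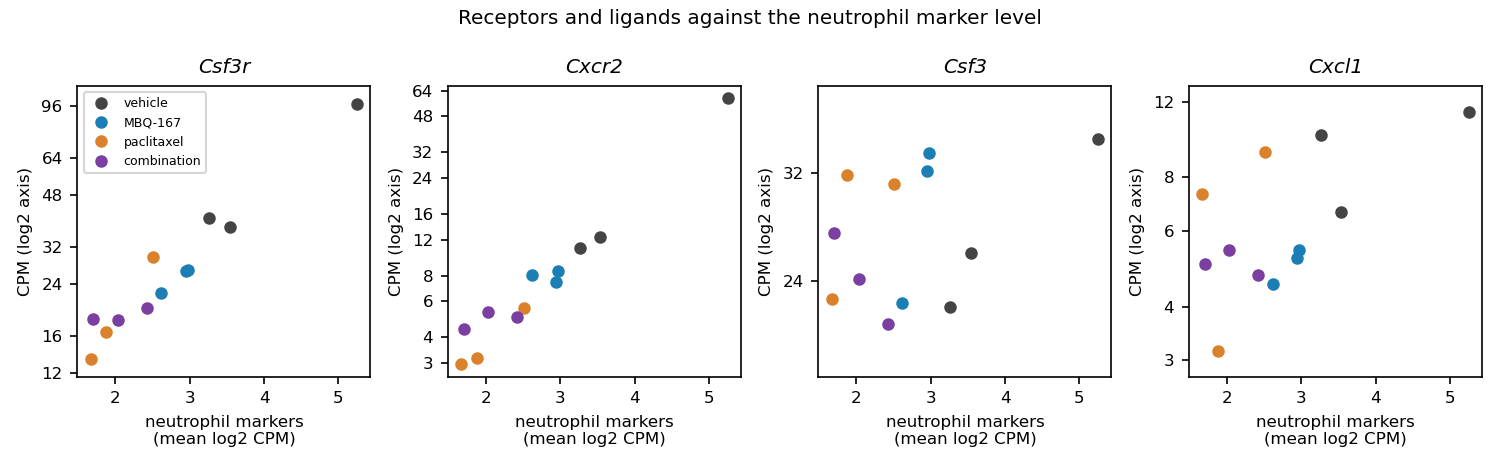
CPM (vertical axis, log2 scale) of both receptors, Csf3 and Cxcl1 against the mean log2 CPM of 19 neutrophil markers (horizontal axis), 1 point per library. Csf3r and Cxcr2 rise with the markers across all 12 libraries, also among the drug libraries, and Csf3 is scattered.

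The genes whose pattern over 12 libraries was most like that of a member were taken as the 3 with the highest Pearson correlation of log2 CPM among genes averaging 1 CPM or more. These are descriptions of shared variation between the same libraries. For Csf3r they were Mxd1 (r = 0.99), a partner of MAX in transcriptional repression, S100a9 (0.976) and Retnlg (0.969), a resistin-like protein of neutrophils. For Cxcr2 they were Pglyrp1 (0.98), a peptidoglycan recognition protein of neutrophil granules, Retnlg (0.975) and Mxd1 (0.964). The nearest genes to Csf1 were Nr2f1 (0.945), an orphan nuclear receptor, Hhip (0.929), a hedgehog-binding protein, and Tifab (0.928). Cxcl2 was closest to Dgat1 (0.953), an enzyme of triglyceride synthesis, Cxcl1 to Mxi1 (0.892), another MAX partner, and Csf3 to Brsk2 (0.879), a kinase. Csf2, Cxcl3 and Cxcl5 had Cyp4f13 (0.889), Trmt10a (0.883) and Zfp951 (0.851) as their closest genes. Between the 9 genes themselves, Csf3r and Cxcr2 were correlated with r = 0.964 (0.904 without vehicle 3), and Csf3r and Cxcl1 with 0.704 (0.549). The neighbouring chemokine genes Cxcl1, Cxcl2, Cxcl3 and Cxcl5 had r between -0.267 for Cxcl1 with Cxcl3 and 0.532 for Cxcl1 with Cxcl2. Spearman's rho was -0.042 and 0.713 for these pairs. The first 3 genes share the letters shown upstream, whose relation to these correlations was not tested.

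Other parts of the pathway were described from lists, whose counts stand beside the 0.0931% of all tested genes called with MBQ-167, 5.66% with paclitaxel and 1.84% with the combination (0.0749%, 6.09% and 2.22% without vehicle 3). Of 8 tested growth factor and receptor genes outside the 9, 0 passed in any comparison with vehicle by edgeR. Csf2rb, the shared β chain of the GM-CSF receptor, had -0.32 ± 0.13 with the combination (adjusted p = 0.213). Flt3, a receptor of haematopoietic progenitors and dendritic cells, had 1.39 there (adjusted p = 0.246).

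Of 17 tested genes for other chemokines and chemoattractants, 0 passed with MBQ-167, 1 fell with paclitaxel (5.66% of all genes were called) and 2 fell with the combination (1.84% of all genes). Without vehicle 3 the counts were 0, 3 and 2, and the 3 with paclitaxel were Alox5ap, C5ar1 and the platelet chemokine Pf4, named here after its value was seen (-1.12, adjusted p = 0.0378). With all 12 libraries the list medians were -0.56, -0.66 and -0.64, against a median near 0 over all genes (0.00073, -0.0018 and 0.00093). Alox5ap, which presents arachidonic acid to 5-lipoxygenase for leukotriene synthesis, was at 36.2, 43.8 and 90.4 CPM in vehicle, highest in library 3 as the neutrophil markers were, whose part in this was not tested. It fell with paclitaxel by 1.35 (adjusted p = 0.0163), to 22.2 ± 4.42 CPM, and with the combination by 1.35 (adjusted p = 0.0338). Without vehicle 3 the values were -0.85 (adjusted p = 0.0252) and -0.84 (adjusted p = 0.0448). C5ar1, the receptor of the complement fragment C5a, fell with the combination by 0.78 (adjusted p = 0.0421), from 39.4 ± 8.53 to 22.9 ± 4.37 CPM. Cxcr1, the other receptor of this chemokine family, was near the detection limit at 1.13 ± 0.796 CPM in vehicle and did not pass (-2.23 ± 0.79 with paclitaxel, adjusted p = 0.111). Without vehicle 3 it had -1.63 with paclitaxel (adjusted p = 0.288).

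Among 23 tested inducers of these genes, 2 fell with paclitaxel, 2 fell with the combination and 0 passed with MBQ-167, beside 2.49% of all genes called lower with paclitaxel and 0.811% with the combination. Without vehicle 3 the counts were 1, 2 and 0. Zfp36, which marks short-lived cytokine mRNAs for decay, fell by 0.84 with paclitaxel (adjusted p = 0.0184) and by 1.10 with the combination (adjusted p = 0.0175). Nfkbia, the NF-κB inhibitor that is itself an NF-κB target, fell by 0.47 with paclitaxel (adjusted p = 0.0478), from 70.4 ± 12.3 to 50.9 ± 2.99 CPM, and missed the threshold without vehicle 3 (-0.41, adjusted p = 0.0961). Il1b, the inflammatory cytokine interleukin-1β, fell with the combination by 1.03 (adjusted p = 0.0377). It was at 79.3, 76.4 and 47.7 CPM in vehicle and at 30.5, 33.9 and 34.7 CPM with the combination. Il17a, a known inducer of G-CSF, had 0 counts in all 12 libraries, and its receptor chain Il17ra had -0.37 ± 0.11 with paclitaxel (adjusted p = 0.0552).

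Of 14 tested genes of signalling below the G-CSF receptor, 1 rose with paclitaxel, 1 rose and 1 fell with the combination, and 0 passed with MBQ-167. The count with paclitaxel is near the share of all genes, 5.66%, and 1.84% of all genes were called with the combination. Jak2, a kinase of cytokine receptors, rose from 139 ± 33.9 CPM in vehicle to 246 ± 43.8 CPM with paclitaxel (0.82 ± 0.19, adjusted p = 0.0236) and to 240 ± 46.4 CPM with the combination (0.78 ± 0.19, adjusted p = 0.0498). Without vehicle 3 Jak2 had 0.63 (adjusted p = 0.0423) with paclitaxel and 0.59 (adjusted p = 0.084) with the combination. Pim1, a kinase induced by STAT signalling, fell by 0.65 with the combination (adjusted p = 0.0335), from 61.6 ± 2.84 to 39.3 ± 5.49 CPM, and had -0.61 without vehicle 3 (adjusted p = 0.051). Without that library Cebpa, a granulocyte transcription factor named here after its values were seen, fell with paclitaxel by 0.86 (adjusted p = 0.0498). Socs3, the feedback inhibitor of G-CSF signalling, had 0.11 ± 0.16 with paclitaxel (adjusted p = 0.729) and -0.13 ± 0.16 with the combination (adjusted p = 0.727). Stat3, the main transcription factor below the receptor, had -0.09 ± 0.11 and -0.05 ± 0.11.

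**Figure D5:**
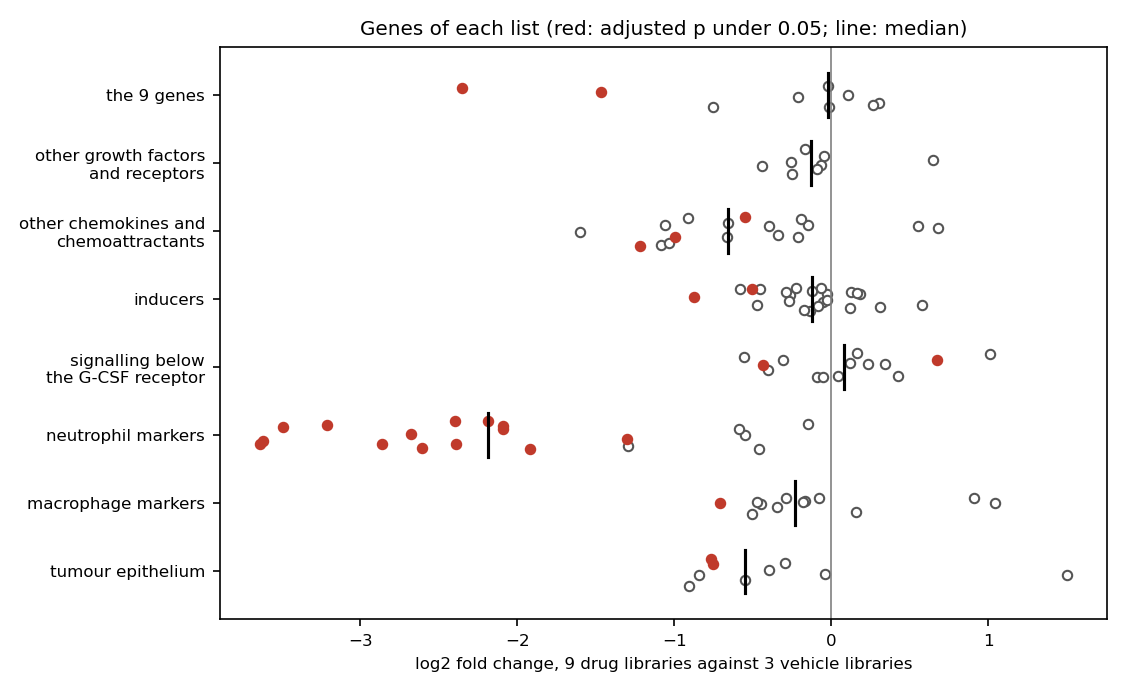
Log2 fold change of the 9 drug libraries against the 3 vehicle libraries (horizontal axis) for each tested gene of 8 lists, with a vertical line at the list's median. Red points passed at an adjusted p under 0.05. In the row of the 9 genes both red points are receptors, and the neutrophil markers have a median of -2.19.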

How the data were processed

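RNA was measured in 12 tumour libraries in 4 groups of 3. The authors deposited raw counts per gene, 1 column per library. Per the submitters' processing notes, HISAT2, HTSeq and DESeq2 were used with GRCm38. Versions, annotation, strand setting and the handling of multi-mapped reads are not stated in the sources used here. The values are whole numbers, 45143 of 46078 identifiers matched a symbol, and no 2 libraries were alike (at least 23986 genes differed). Genes were kept by filterByExpr (minimum count 10). The main test was the quasi-likelihood test of edgeR 4.0.16 with TMM scaling on all 12 libraries, at an adjusted p under 0.05, in 7 comparisons. The biological coefficient of variation was 0.214, with 8 residual degrees of freedom. Scripts were tested on simulated counts of paclitaxel against vehicle. The test recovered 56% of 2-fold and 98% of 4-fold changes. Of 171 calls 17 were false, a larger share than the threshold of 0.05 aims for. The changed genes were drawn only from those with a mean above 2 CPM. Recovery at the level of Csf2 was thus not measured. Correlations used log2 CPM with a prior count of 2 and 100000 resamples. Alternatives were DESeq2 1.42.0, limma voom 3.58.1, RLE scaling, other filters, only the groups compared, a replicate block, removal of 3 rRNA-like features, a GC offset (spline with 5 degrees of freedom, 18144 genes) and each library left out. All 9 members were named, with the 3 most correlated genes each. From each list, genes that passed were named (at most 4 per comparison), or the 2 smallest p-values where none did, and other list genes were chosen after their values were seen. Members and lists were chosen with earlier results of these data known. Exon lengths, coordinates and GC came from GENCODE vM21 on GRCm38. Flt3l, a listed gene, was not used here.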

Additional observations from a re-analysis of the deposited data

How the results depend on the processing

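Over single-gene fold changes of the 9 genes, 939 alternative values kept direction and side of the threshold, 75 changed sign, 15 lost a call and 6 gained one. Csf3r and Cxcr2 in the pooled comparison kept their calls in all 20 alternatives. No call reversed: every sign change was in a gene that had not passed.

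More genes passed by DESeq2: 329 with MBQ-167, 1733 with paclitaxel, 916 with the combination, 1 in the combination against MBQ-167, 147 in the interaction and 1767 pooled. Without a filter on low counts 392, 1554, 849, 4, 197 and 1764 passed in the same order, and 7 in the combination against paclitaxel. With only the groups compared, 5, 251 and 7 passed with MBQ-167, paclitaxel and the combination, and with the GC offset 422 with paclitaxel and 75 with the combination. Of the 9 genes, with MBQ-167 DESeq2 called 1 and the unfiltered test 2. With only the groups compared 0 passed with paclitaxel and 0 with the combination, where limma voom called 1, Csf3r, and the GC offset 1, Cxcr2. The unfiltered interaction gave 1, Cxcr2. The cause was not tested.

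Leaving out 1 library moved the genes passing to 5 to 42 with MBQ-167, 230 to 1139 with paclitaxel, 29 to 416 with the combination, 2 to 16 in the interaction and 291 to 1125 pooled, and the 9 genes' count to 0 to 2 with paclitaxel and with the combination. Signs changed when 1 library was left out. With MBQ-167 the ranges were -0.5125 to 0.7526 for Csf2, -0.6684 to 0.3277 for Cxcl5, -0.04739 to 0.2903 for Csf3, -0.1091 to 0.4155 for Csf1, -0.03005 to 0.1438 for Cxcl3 and -0.5843 to 0.1464 for Cxcl2. With paclitaxel they were -0.09488 to 0.243 for Csf3, -0.07535 to 0.2007 for Cxcl2, -0.2001 to 0.3242 for Csf1 and -0.1512 to 0.5809 for Cxcl5. With the combination they were -0.4641 to 0.06029 for Csf1, -0.3292 to 0.00874 for Csf3 and -0.5855 to 0.03206 for Cxcl3. Against MBQ-167 the combination gave -0.06883 to 0.061 for Cxcl1, -0.634 to 0.09736 for Cxcl2 and -0.0385 to 1.051 for Cxcl5. Against paclitaxel it gave -0.3111 to 0.3238 for Csf3r, -0.3585 to 0.5306 for Cxcl5 and -0.379 to 0.4075 for Csf2. The interaction ran from -0.4008 to 0.6832 for Cxcl5, -0.7 to 0.5665 for Csf2 and -0.6732 to 0.05708 for Cxcl2. Pooled values ran from -0.2578 to 0.2667 for Csf1, -0.1572 to 0.1807 for Csf3 and -0.02294 to 0.1856 for Cxcl3.

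Other sign changes came with limma voom (-0.006198 for Csf2 and -0.1625 for Cxcl5 with MBQ-167, 0.1684 for Cxcl5 in the interaction, 0.04245 for Csf1 pooled) and with the GC offset. The latter gave -0.03798 for Csf2, -0.06164 for Cxcl3 and -0.1317 for Cxcl5 with MBQ-167, -0.1004 for Cxcl2 with paclitaxel, -0.05118 for Cxcl1 in the combination against MBQ-167 and 0.203 for Cxcl5 in the interaction. Its pooled values were 0.0533 for Csf3, 0.05793 for Csf1, -0.09875 for Cxcl3 and -0.01119 for Cxcl5. Against the neutrophil marker level, r was 0.05976 for Cxcl5 as deviations from group means. For the levels themselves it was -0.04711 for Csf2 and 0.4285 for Csf1 without the 2 farthest libraries. Csf2 and Csf1 gained a call as deviations from group means (r = 0.6721 and -0.6621), with permutation p-values that may be too small.

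Same-numbered libraries had correlations of deviations from -0.175 to 0.252 (mean 0.0319), with 6 of 18 pairs over 0.1. Libraries of other numbers had -0.194 to 0.227 (mean -0.0158), with 8 of 36 pairs over 0.1. The numbers were not taken to pair the 4 groups, and a weak pairing is not excluded by these values. The 3 pairs of vehicle and combination libraries were all over 0.1 (0.108, 0.215 and 0.188), and 6 of 12 libraries correlated best with their own number. With the replicate number as a block 24, 1092 and 300 genes passed with MBQ-167, paclitaxel and the combination, 0 in the combination against either drug, 13 in the interaction and 1166 pooled. It changed no call among the 9 genes. Under the block Csf2 was -0.02963 and Cxcl5 -0.05258 with MBQ-167, Cxcl5 -0.1027 in the combination against paclitaxel, and Csf1 0.02641 pooled.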
